A study of Mus musculus with 17 samples.

Results

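The comparison of the dams at day of life 14 set 3 libraries of pups nursed by a dam without IgA against 3 libraries of pups nursed by a C57BL/6 dam. These are 6 of the 17 libraries of the series, taken by the dam and the day that each sample's title gives. The other 11 libraries, 5 at day 24 and 6 at day 42, were scaled and fitted together with these 6. They thus bear on every p-value at day 14, except where a fit of the 6 libraries alone is named. Their levels are given where day 14 is set beside later ages. Every pup was Igha -/+ on the C57BL/6 strain and came from a cross of a C57BL/6 with an IgA -/- mouse, so that pups of both groups carried 1 intact Igha allele and were themselves able to make IgA. The control pups had a C57BL/6 dam, called the B6 dam, and the other pups had an IgA -/- dam, called the IgA-null dam. Mice were kept under specific-pathogen-free conditions. The stated question is what IgA from the mother does in the developing intestine. The labels do not say whether pups were moved between dams at birth, so the dam's genotype may cover pregnancy as well as nursing. Nor do they tie pups to litters, so the p-values below measure the spread between these samples, which may be technical.

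IgA is the main antibody of mouse milk, and it coats gut microbes before the pup's own plasma cells make IgA. The suckling small intestine takes up milk proteins by endocytosis and digests them in large lysosomes of its enterocytes, a mode of digestion that is lost around weaning. The same epithelium holds secretory lineages: goblet cells, which make mucus, Paneth cells, which make antimicrobial proteins, enteroendocrine cells, which make gut hormones, and tuft cells, which sense luminal chemicals.

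RNA came from sorted EpCAM+ CD45- Ter119- cells of the small intestine and was amplified with a low-input SMART-seq kit. Epithelial markers were high in all 6 libraries and leukocyte markers were near 0. Epcam, the adhesion protein used for the sort, stood at 399, 386 and 377 scaled TPM in B6 replicates 1, 2 and 3 and at 271, 244 and 272 in IgA-null replicates 1, 2 and 3. Scaled TPM is the deposited TPM divided by a size factor for each library, and values given as a run of 3 follow this replicate order throughout. Ptprc, the gene of the pan-leukocyte marker CD45 used to gate leukocytes out, was at most 0.0526 scaled TPM in any of the 6 libraries. The 12 epithelial identity genes summed to 1794 to 2057 scaled TPM in the B6 libraries and to 1989 to 2049 in the IgA-null libraries, and none of them passed the test (5 at an unadjusted p under 0.05 in limma, 1 called by limma-voom). Igha was listed at 0 in 5 of the 6 libraries, and Pigr, the receptor that carries IgA across the epithelium, stood at 179, 132 and 224 and 228, 207 and 209.9 scaled TPM (adjusted p = 0.45, limma).

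The libraries of the 2 dams were not alike in depth or make-up. Recovered reads numbered 11310851 to 13636442 per library in the B6 libraries and 8477226 to 11337164 in the IgA-null libraries. RNA outside mitochondrial genes and the single most abundant gene model made up 18.8% to 19.7% of TPM in the B6 libraries and 24.7% to 30.9% in the IgA-null libraries. The number of genes at a TPM of 1 or more was 11883 to 12305 in the B6 libraries and 13212 to 14257 in the IgA-null libraries. The date strings in the sample descriptions also differed between the dams at day 14, so what the date marks and the dam cannot be told apart. The same strings begin with the letter F for all 9 IgA-null libraries of the series and with M for all 8 B6 libraries, and the labels do not say what the letters stand for. Sex-linked genes did not divide the libraries: in all 17, Xist, the RNA of the inactive X, was at most 0.127 deposited TPM, and the Y-linked Ddx3y was at least 2.46. Because of the shift in make-up, TPM was rescaled by the median of ratios before testing: the median log2 fold change over all genes was -0.015 after scaling and 0.34 in the TPM as deposited. Fold changes are differences of log2(scaled TPM + 1), given as the IgA-null dam minus the B6 dam, and they understate the change of low genes.

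Of 14298 genes tested, 511 (3.57%) passed an adjusted p of 0.05 in limma, 301 (2.11%) higher and 210 (1.47%) lower in pups of the IgA-null dam. A fold change of at least 2 was reached by 188 of them, 124 higher and 64 lower. Counts of called genes in the lists below are to be read against 2.11% of all genes called higher and 1.47% called lower. A gene was tested from 1 deposited TPM in 2 libraries, a level that more genes reached in the IgA-null libraries. Low genes could thus enter through those libraries alone, as Cartpt, Lmx1a, Sh2d6, Rbp4, Scg2, Scg5 and Ptprn did. Csf1r and Hmox1 entered through the B6 libraries alone. Counts and medians of low genes may therefore lean toward rises, which was not tested. Those lists and their members were chosen with earlier results of these data known. By the naming rule the lectin gene Reg3b had the largest rise and the antioxidant gene Gpx3 the largest fall. Hormone, granule and mucus genes were among the other ranked rises, and lysosomal and milk uptake genes among the other ranked falls. All 301 higher genes and 208 of the 210 lower genes had libraries that did not overlap between the dams. Over all genes tested, 16.2% did not overlap in the higher direction and 15.6% in the lower direction, so such a gap alone was common. Fgf15 and Renbp were the 2 lower genes with an overlap. Called genes numbered 88, 93 and 578 without B6 replicates 1, 2 and 3 and 113, 120 and 143 without IgA-null replicates 1, 2 and 3, and 64 genes (49 higher, 15 lower) were called in all 6 of these fits. The share of calls that were higher was 58.9%. It was 95.8% in the TPM as deposited, where 1376 genes (9.62%) were higher and 60 (0.42%) lower. A fit of the 6 day 14 libraries alone gave 70.6%, and size factors taken from protein-coding genes only gave 72.4%. The share was 50.7% under quantile normalisation, 50% with a TPM of at least 5 and 46.1% with library weights. It was 40.0% without B6 replicate 3 and 70.8% to 75.8% without any other single library. The excess of rises thus depended on the setting.

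**Figure D1:**
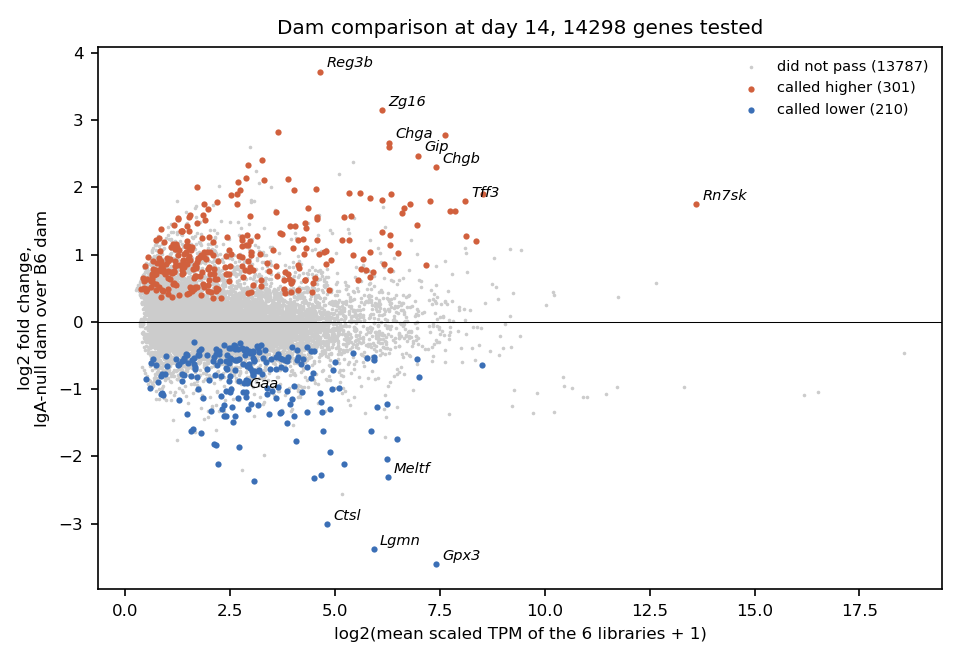
Log2 fold change at day 14 (IgA-null dam minus B6 dam, y axis) against log2(mean scaled TPM of the 6 libraries + 1) (x axis) for the 14298 genes tested; coloured points are the 301 higher and 210 lower genes and grey points the rest. Reg3b and Zg16 lie at the top, and Gpx3, Lgmn and Ctsl at the bottom.

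**Figure D2:**
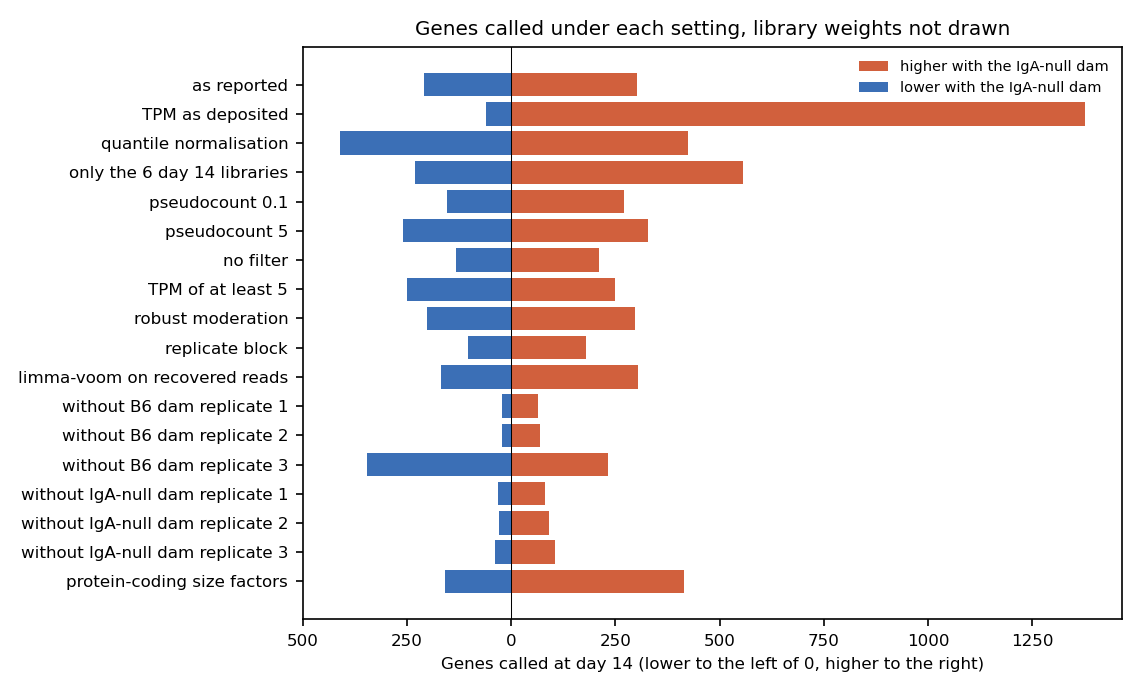
Number of genes called higher and lower at day 14 under each way of processing the data (library weights, with 4523 calls, are not drawn), with the reported fit at 301 higher and 210 lower. The TPM as deposited gave 1376 higher and 60 lower, and leaving out B6 replicate 3 gave 231 higher and 347 lower.

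Gut hormone genes were higher with the IgA-null dam. Of 12 hormone and neuropeptide genes tested, 9 rose and none fell, with a median log2 fold change of 1.68 against -0.015 over all genes. Their summed level was 111 to 192 scaled TPM in the B6 libraries and 536 to 678 in the IgA-null libraries. In sorted bulk cells, more cells of a type and more RNA per cell cannot be told apart. Another 3 listed genes (Gast, Insl5 and Uts2b) were at 0 in all 6 libraries.

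Nts, the gene of neurotensin (ENSMUSG00000019890.4, chr10:102481756-102490486, minus strand, GENCODE M21 on GRCm38), stood at 10.4, 37.7 and 22.3 scaled TPM with the B6 dam and at 129, 113 and 154 with the IgA-null dam. Gip, which encodes an incretin of the upper small intestine (ENSMUSG00000014351.12, chr11:96024545-96030831, plus strand), stood at 45.1, 34.5 and 33.9 and 257, 173 and 215. In both genes every library of the IgA-null dam was above every library of the B6 dam. Nts rose by 2.60 ± 0.46 (log2 fold change ± SE, limma adjusted p = 0.013) and Gip by 2.47 ± 0.49 (limma adjusted p = 0.020). The means were 5.62-fold and 5.69-fold higher.

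Pyy and Gcg, which encode the satiety peptides PYY and GLP-1 of the distal gut, rose as well. Pyy went from 2.96, 4.999 and 5.99 to 27.1, 22.4 and 19.98 scaled TPM, and Gcg from 5.16, 5.696 and 6.08 to 24.23, 26.1 and 24.41. The spread of Gcg within each dam was narrow, and the gap between the dams was wide. Sct, the gene of secretin, rose from 4.76, 10.5 and 11.8 to 40.1, 34.9 and 33.9 scaled TPM. Pyy, Sct and Gcg had log2 fold changes of 2.13, 1.98 and 1.96 (limma adjusted p = 0.0063, 0.0044 and 0.016).

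Sst, the gene of the inhibitory hormone somatostatin, stood at 32.7, 83.3 and 34.3 and 150.2, 131 and 171 scaled TPM (1.70, limma adjusted p = 0.027). B6 replicate 2 was well above the other B6 libraries for Sst and below all 3 IgA-null libraries. Cck, the gene of cholecystokinin, stood at 3.69, 2.98 and 8.86 and 21.5, 14.17 and 15.2 scaled TPM (1.64, limma adjusted p = 0.040). Tac1 and Cartpt, neuropeptide genes at low levels, rose by 0.99 and 0.88 (limma adjusted p = 0.046 and 0.024). Ghrl, the gene of ghrelin, was also separated between the dams, at 2.85, 9.18 and 3.397 and 20.1, 14.16 and 15.98 scaled TPM, but did not pass the test (limma adjusted p = 0.052). In fits that each left out 1 library, calls among the 12 genes numbered 2, 5 and 7 without B6 replicates 1, 2 and 3, and 3, 4 and 4 without IgA-null replicates 1, 2 and 3. Pyy and Sct passed in all 6 of these fits, Nts failed without B6 replicate 1 (adjusted p = 0.055), Gip and Cck passed only without B6 replicate 3, Gcg only without B6 replicate 3 or IgA-null replicate 3 (adjusted p up to 0.064), Cartpt only without B6 replicate 3 or IgA-null replicate 2, Sst only without B6 replicate 2, and Tac1 in none (adjusted p up to 0.13).

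Many genes of the hormone granule list moved the same way. Of 23 tested genes of this granule and serotonin list 11 rose, against 2.11% of all genes, and none fell, with a median of 0.80. Chga, the gene of chromogranin A (ENSMUSG00000021194.6, chr12:102554969-102565028, plus strand), stood at 18.03, 23.3 and 20.5 scaled TPM with the B6 dam and at 138, 129 and 140.3 with the IgA-null dam. Chgb, the gene of chromogranin B, stood at 57.04, 62.5 and 50.8 and 312, 268 and 269 scaled TPM. These granins pack peptide hormones into dense-core granules, and their libraries lay close together within each dam and far apart between the dams. Chga rose by 2.67 ± 0.29 (limma adjusted p = 0.0013) and Chgb by 2.30 ± 0.31 (limma adjusted p = 0.0027).

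Tph1, the enzyme that commits tryptophan to serotonin in enterochromaffin cells, stood at 0.595, 0.975 and 0.813 and 5.85, 3.296 and 4.195 scaled TPM (log2 fold change 1.58, limma adjusted p = 0.0025). Pcsk1, a convertase that cuts prohormones, stood at 0.709, 0.812 and 0.855 and 3.303, 2.58 and 2.86 scaled TPM, and Pcsk1n, which encodes its inhibitor proSAAS, at 0.494, 0.836 and 0.540 and 3.07, 2.81 and 3.45. Both rose, by 1.12 and 1.34 (limma adjusted p = 0.0071 and 0.0013). Scg2, Scg5, Ptprn and Snap25, which serve granule formation and release, rose by 1.58, 1.08, 0.77 and 0.49, and Syt7 and Peg3 by 0.76 and 1.10 (limma adjusted p = 0.0044 to 0.032). Peg3 is on the list but is not a granule component. Scg2, Scg5 and Ptprn were under 1 deposited TPM in every B6 library and entered the test only through the IgA-null libraries. Not every gene of this list moved: Pam, which amidates peptide hormones, had a log2 fold change of -0.079 (limma adjusted p = 0.86), and Ddc, which makes serotonin from its precursor, one of 0.43 (limma adjusted p = 0.18). In the TPM as deposited the value of Pam was 0.25, of the opposite sign. Chga, Chgb, Tph1, Pcsk1, Pcsk1n, Syt7 and Peg3 passed in every fit that left out 1 library, and Snap25 only without IgA-null replicate 2. Calls in the list were 7, 7 and 10 without B6 replicates 1, 2 and 3, and 7, 10 and 7 without IgA-null replicates 1, 2 and 3.

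Among transcription factors of the endocrine lineage few passed, though 12 of 14 had a log2 fold change above 0 and none fell. Neurod1, a factor of maturing endocrine cells, stood at 1.19, 1.53 and 1.59 scaled TPM with the B6 dam and at 7.38, 6.55 and 10.4 with the IgA-null dam, and rose by 1.88 ± 0.37 (limma adjusted p = 0.019). Lmx1a, a factor of serotonin cells, stood at 0.674, 0.670 and 0.432 and 2.56, 2.22 and 2.21 scaled TPM and rose by 1.07 ± 0.17 (limma adjusted p = 0.0063). These 2 were the only calls among 14 such factors, whose median was 0.26. Neurog3, the factor that starts the endocrine fate, stood at 2.12, 1.67 and 1.11 and 0.903, 1.35 and 1.11 scaled TPM, with libraries that overlapped (limma adjusted p = 0.59). Neurod1 failed without any one of B6 replicates 1 and 2 and IgA-null replicates 1 and 3 (adjusted p up to 0.077). Of 6 nutrient-sensing receptors tested, 2 rose: Ffar2, a receptor for short-chain fatty acids, by 0.73 (limma adjusted p = 0.036), and Trpa1, an irritant channel of enterochromaffin cells, by 1.15 (limma adjusted p = 0.014). Their median was 0.75. Ffar2 held only without B6 replicate 3, and Trpa1 only without B6 replicate 3 or IgA-null replicate 2 or 3.

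**Figure D3:**
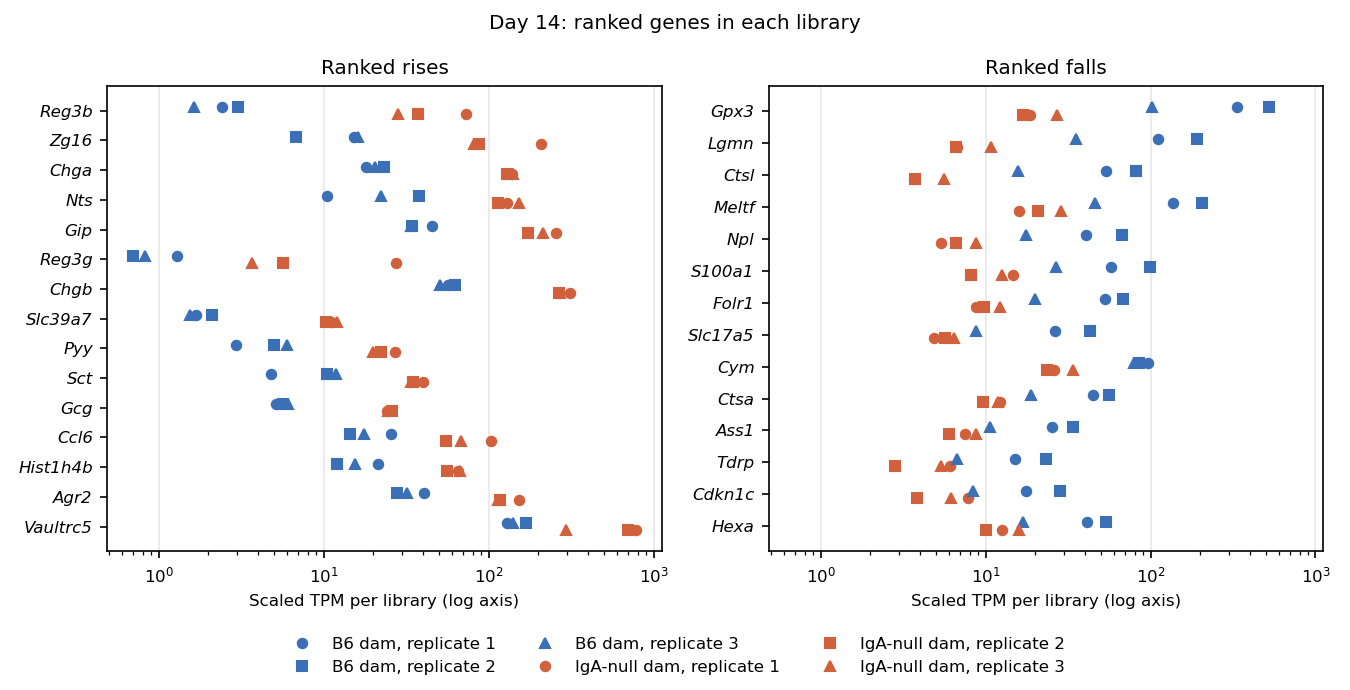
Scaled TPM (log axis) in each of the 6 day 14 libraries for the ranked rises and falls that the text names; each point is 1 library, coloured by dam. No gene shown has overlapping dams, and B6 replicate 3 is the lowest B6 library for each fall shown.

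Goblet cell genes formed the other large group of rises. Of 26 mucus and goblet secretion genes tested, 16 rose, against 2.11% of all genes, and none fell, with a median of 1.03. Zg16, a mucus lectin that binds bacterial cell walls (ENSMUSG00000049350.6, chr7:127050156-127087328, minus strand), had the largest change of the list. It stood at 15.3, 6.77 and 16.2 scaled TPM with the B6 dam and at 208, 87.2 and 81.9 with the IgA-null dam, a rise of 3.15 ± 0.49 (limma adjusted p = 0.0059). Muc2, which encodes the gel-forming mucin of intestinal mucus (ENSMUSG00000025515.15, chr7:141690340-141754693, plus strand), stood at 58.1, 38.3 and 52.1 and 213, 148 and 147 scaled TPM, a rise of 1.75 ± 0.27 (limma adjusted p = 0.0059). In both genes IgA-null replicate 1 was the highest library, and the dams did not overlap.

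Other secreted mucus components rose with Muc2. Tff3, the goblet trefoil peptide, stood at 148, 101 and 117 and 537, 380.4 and 364 scaled TPM (limma adjusted p = 0.0025). Fcgbp, a mucin-binding glycoprotein, stood at 135, 82.7 and 119 and 482, 278 and 307 (limma adjusted p = 0.0063), and Clca1, a mucus-processing protease, at 36.2, 19.9 and 33.1 and 153, 80.9 and 88.9 (limma adjusted p = 0.031). Agr2, a disulfide isomerase needed to fold Muc2, stood at 40.7, 27.8 and 32.1 and 154, 116 and 113 scaled TPM (log2 fold change 1.90, limma adjusted p = 0.0041). The goblet peptide gene Spink4 and the chemokine gene Ccl6 rose by 1.20 and 1.92 (limma adjusted p = 0.042 and 0.021).

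Genes that build or release mucin also rose. Galnt12 and Gcnt3, glycosyltransferases of mucin-type O-glycans, rose by 1.23 and 1.13 (limma adjusted p = 0.024 and 0.025). Sytl2 and Fer1l6, of families that act in membrane fusion, rose by 0.96 and 1.18, the calpains Capn8 and Capn9 by 0.93 and 0.68, and Bcas1 and Slc12a8 by 1.26 and 0.75 (limma adjusted p = 0.0044 to 0.050). Zg16, Muc2, Tff3, Fcgbp, Agr2, Sytl2, Fer1l6 and Capn8 passed in every fit that left out 1 library. Clca1 and Galnt12 passed only without B6 replicate 3, and Spink4, Capn9 and Slc12a8 in none of them. Calls in the list were 9, 8 and 13 without B6 replicates 1, 2 and 3, and 8, 11 and 9 without IgA-null replicates 1, 2 and 3.

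Genes that set the secretory fate gave no rise in the reported fit. Of 16 Notch and secretory fate genes tested, none rose and 1 fell, with a median of 0.10. Atoh1, the factor that specifies secretory cells, stood at 2.78, 1.73 and 2.82 scaled TPM with the B6 dam and at 6.47, 5.68 and 4.48 with the IgA-null dam, without overlap, and did not pass the test (log2 fold change 0.93 ± 0.24, limma adjusted p = 0.051). Spdef, a goblet maturation factor, stood at 3.47, 3.29 and 4.097 and 7.22, 6.98 and 5.45 (limma adjusted p = 0.11), also without overlap. Both passed in the TPM as deposited (limma adjusted p = 0.011 and 0.034) and in a fit of the 6 day 14 libraries alone (limma adjusted p = 0.036 and 0.032). In each of those fits 3 genes of the list rose, against 9.62% of all genes as deposited and 555 of 14298 in the 6 libraries. Hes6, which acts against Notch effectors, was the 1 call, at 12.8, 12.5 and 12.3 and 6.72, 8.87 and 6.57 scaled TPM. It fell by 0.70 ± 0.18 (limma adjusted p = 0.047), a call that was lost in each fit that left out 1 library (adjusted p up to 0.14), in the TPM as deposited (adjusted p = 0.44), under quantile normalisation (0.083) and with protein-coding size factors (0.075).

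Stem and dividing cells showed no called gene. None of 17 stem cell genes passed, with a median of -0.23 that was 0.21 in the TPM as deposited, and none of 30 cell cycle genes, with a median of -0.0025 that was 0.37 as deposited. At an unadjusted p under 0.05 limma gave 3 stem and 1 cell cycle genes, and limma-voom called 0 and 0. Lgr5, the receptor that marks crypt stem cells, stood at 4.62, 4.52 and 7.47 and 3.72, 4.49 and 4.16 scaled TPM, so that every B6 library was above every IgA-null library by a narrow margin (log2 fold change -0.32, limma adjusted p = 0.36). In the TPM as deposited its fold change was 0.057, of the opposite sign.

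Among antimicrobial genes 3 Reg lectins rose. Reg3b, a lectin that acts mainly on Gram-negative bacteria (ENSMUSG00000071356.7, chr6:78370657-78373466, plus strand), had the largest rise of the ranked genes, from 2.43, 3.02 and 1.63 scaled TPM with the B6 dam to 73.2, 37.1 and 28.2 with the IgA-null dam. The rise was 3.72 ± 0.55 (limma adjusted p = 0.0046), and it passed in every fit that left out 1 library. Reg3g, a close paralogue that acts on Gram-positive bacteria, stood at 1.28, 0.694 and 0.827 and 27.6, 5.703 and 3.66 scaled TPM, so that IgA-null replicate 1 held most of the gap. It rose by 2.33 ± 0.60 (limma adjusted p = 0.048) but passed only without IgA-null replicate 3 of the fits that left out 1 library (adjusted p up to 0.15). Reads of such near copies may have been split by the counting, so the share of each is uncertain. Reg4, a lectin made by goblet and endocrine cells, stood at 53.5, 36.9 and 49.6 and 174, 134 and 126 scaled TPM (log2 fold change 1.62, limma adjusted p = 0.021), a call that held only without B6 replicate 3. These 3 were the calls among 11 antimicrobial and microbe-responsive genes tested, whose median was 0.77. Reg3a, a further Reg lectin of that list, stood at 0.438, 0.356 and 1.03 and 2.67, 2.08 and 1.58 scaled TPM, without overlap, and did not pass (limma adjusted p = 0.39). Below the filter were 16 of the 27 listed.

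Paneth cell products were higher in value but seldom passed. All 20 tested had a log2 fold change above 0, with a median of 0.91, and 15 did not overlap, against 16.2% of all genes, yet 2 rose: Mmp7, the protease that activates mouse alpha-defensins, and Mptx1, a pentraxin. Mmp7 stood at 8.12, 5.01 and 6.12 and 20.2, 16.5 and 15.4 scaled TPM (1.32, limma adjusted p = 0.044) and passed in no fit that left out 1 library. Mptx1 stood at 1.88, 0.735 and 2.82 and 12.5, 7.03 and 9.55 scaled TPM (1.97, limma adjusted p = 0.0063) and passed in all 6. Lyz1, the Paneth lysozyme, stood at 169, 94.6 and 107 and 276, 175 and 199.9, with dams apart and no call (limma adjusted p = 0.59). Defa24, an alpha-defensin, stood at 1295, 808 and 977 and 1747, 1119 and 1197, with libraries that overlapped (limma adjusted p = 0.80). In the TPM as deposited, and likewise in the 6 libraries alone, 7 of the 20 rose. Over all genes tested, 9.62% were called higher as deposited and 555 of 14298 in the 6 libraries alone. Mptx and defensin genes have near copies, so their values are uncertain in the same way.

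Tuft cell genes gave 2 rises among 14 tested and no fall, with a median of 0.62. Avil, an actin-binding protein of tuft cells, stood at 1.03, 0.842 and 0.697 and 3.19, 2.52 and 3.39 scaled TPM (1.12, limma adjusted p = 0.045). Sh2d6, another tuft marker, stood at 0.381, 0.507 and 0.454 and 2.32, 2.72 and 2.99 (1.34, limma adjusted p = 0.020). Trpm5, the cation channel of tuft cell signalling, stood at 0.518, 0.505 and 0.344 and 1.702, 1.82 and 1.89 scaled TPM, with dams apart and no call (limma adjusted p = 0.053). In the TPM as deposited 6 of the 14 genes rose, against 9.62% of all genes. In the 6 libraries alone 8 did, against 555 of all 14298 genes. Trpm5 passed in both fits (limma adjusted p = 0.019 and 0.0098). The call of Avil was lost in every fit that left out 1 library, and that of Sh2d6 held only without B6 replicate 3.

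Lysosomal genes were lower with the IgA-null dam. Of 74 lysosomal genes tested, 20 fell, against 1.47% of all genes, and none rose, with a median of -0.56. The 17 proteases and their regulators gave 10 falls and a median of -1.05, the 30 glycosidases, lipases and sulfatases 9 falls and a median of -0.58, and the 27 membrane and acidification genes 1 fall and a median of -0.40. The summed level of the proteases was 275 to 770.2 scaled TPM in the B6 libraries and 163 to 204 in the IgA-null libraries.

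Lgmn, an asparaginyl endopeptidase of lysosomes (ENSMUSG00000021190.14, chr12:102394084-102439813, minus strand), stood at 110.3, 191 and 35.5 scaled TPM with the B6 dam and at 6.69, 6.61 and 10.8 with the IgA-null dam. Ctsl, the cysteine protease cathepsin L (ENSMUSG00000021477.9, chr13:64359337-64370890, minus strand), stood at 53.6, 82.00 and 15.7 and 3.71, 3.74 and 5.58 scaled TPM. In both genes B6 replicate 2 was highest and B6 replicate 3 lowest of the B6 libraries, and B6 replicate 3 was still above all 3 IgA-null libraries. Lgmn fell by 3.38 ± 0.44 (limma adjusted p = 0.0025) and Ctsl by 3.00 ± 0.40 (limma adjusted p = 0.0025) on the log2 scale, and both passed in every fit that left out 1 library.

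Several of these genes carry the palindrome CACGTG, the core of the E-box read by lysosomal regulators of the MiT/TFE family, in their promoter. It is shown for the 8 called lysosomal genes in which a window from 250 bases before to 50 after the RefSeq start site (GRCm38.p6) holds it. Capitals mark the 6 letters, which read alike on both strands, with up to 20 bases on each side within the window and upstream of the start site. The distance is that of the match from the start site.
Lgmn, chr12:102439116-102439161, minus strand, 49 bases before the start: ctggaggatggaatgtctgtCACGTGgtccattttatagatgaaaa
Ctsl, chr13:64370731-64370770, minus strand, 236 bases before the start: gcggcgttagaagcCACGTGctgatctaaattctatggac
Ctsa, chr2:164833741-164833772, plus strand, 12 bases before the start: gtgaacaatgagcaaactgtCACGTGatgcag
Ctsd, chr7:142387900-142387945, minus strand, 98 bases before the start: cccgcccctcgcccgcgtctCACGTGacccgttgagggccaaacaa
Dpp7, chr2:25356380-25356425, minus strand, 73 bases before the start: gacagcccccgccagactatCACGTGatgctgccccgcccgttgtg
Gaa, chr11:119267803-119267848, plus strand, 140 bases before the start: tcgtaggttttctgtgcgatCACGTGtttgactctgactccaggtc
Gla, chrX:134601174-134601219, minus strand, 194 bases before the start: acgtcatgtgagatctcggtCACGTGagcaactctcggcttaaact
Glb1, chr9:114401010-114401055, plus strand, 48 bases before the start: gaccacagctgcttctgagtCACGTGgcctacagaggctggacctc
Ctsd and Gla each hold a second match, 245 and 227 bases before the start. Of all 32851 RefSeq promoter windows of this length, 7.15% hold the letters, and of the 8754 genes tested that have such a window, 12.1% do. No share is given for the lysosomal lists, because too few of their members have a promoter entry (13 of 17 proteases, 23 of 30 glycosidases and 21 of 27 membrane genes, each under the 80% needed). The other called lysosomal genes had no match or no promoter entry. Uncalled lysosomal genes also hold the letters: Arsa, Naglu, Sgsh, Atp6v0d1, Atp6v1a, Lamp1 and Mcoln1. So do Cck and Tac1, hormone genes called higher, and the letters are therefore not particular to genes that fell. The matches describe the sequence only. Tfeb, which encodes a factor of the family named above, stood at 2.698, 3.701 and 2.18 and 2.27, 2.16 and 2.42 scaled TPM, with overlapping libraries (limma adjusted p = 0.43).

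Of the proteases shown by sequence, Ctsa, a carboxypeptidase that also protects the sialidase Neu1, stood at 44.6, 56.4 and 18.9 and 12.2, 9.63 and 11.8 scaled TPM and fell by 1.62 on the log2 scale (limma adjusted p = 0.018). Ctsd, an aspartic protease, fell by 1.14, and Dpp7, a dipeptidyl peptidase, by 1.10 (limma adjusted p = 0.030 and 0.025). The cathepsins Ctsb, Ctsh and Ctsz, the tripeptidyl peptidase Tpp1 and the cathepsin inhibitor Cstb fell by 0.89 to 1.22 (limma adjusted p = 0.027 to 0.046). These 8 calls held only without B6 replicate 3.

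Among the glycosidases, Gaa, the acid alpha-glucosidase that degrades glycogen, stood at 8.902, 10.8 and 5.89 and 3.502, 3.71 and 3.31 scaled TPM, with little spread in the IgA-null libraries, and fell by 1.05 ± 0.15 (limma adjusted p = 0.0044) in this and every fit that left out 1 library. Hexa, a subunit of beta-hexosaminidase, stood at 41.03, 53.5 and 16.9 and 12.6, 10.02 and 15.9 scaled TPM, where the lowest B6 library and the highest IgA-null library were close (limma adjusted p = 0.029). Galns, Glb1, Gusb, Gla, Man2b1 and the cholesterol carrier Npc2 fell by 0.57 to 1.30 (limma adjusted p = 0.017 to 0.045). Slc17a5, the sialic acid exporter of the lysosomal membrane, stood at 26.4, 42.8 and 8.74 and 4.86, 5.68 and 6.41 scaled TPM and fell by 1.78 ± 0.36 (limma adjusted p = 0.022). Lamp1, the main lysosomal membrane glycoprotein, stood at 76.8, 94.6 and 42.5 and 42.5, 31.3 and 39.3, with B6 replicate 3 at the level of the highest IgA-null library (limma adjusted p = 0.10).

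B6 replicate 3 bears on all of these calls. It was the lowest B6 library for 68 of the 74 lysosomal genes and for 153 of all 210 lower genes. Called proteases were 2, 2 and 11 without B6 replicates 1, 2 and 3, and 2, 2 and 2 without IgA-null replicates 1, 2 and 3. Called glycosidases were 1, 1 and 15 without B6 replicates 1, 2 and 3, and 2, 1 and 2 without IgA-null replicates 1, 2 and 3. Called membrane genes were 0, 0 and 11 without B6 replicates 1, 2 and 3, and 0, 0 and 0 without IgA-null replicates 1, 2 and 3. In the TPM as deposited 3, 3 and 2 genes of the 3 lists fell, and in a fit of the 6 day 14 libraries alone 3, 2 and 1. Over all genes tested, 0.42% fell as deposited and 231 of 14298 in the 6 libraries alone.

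**Figure D4:**
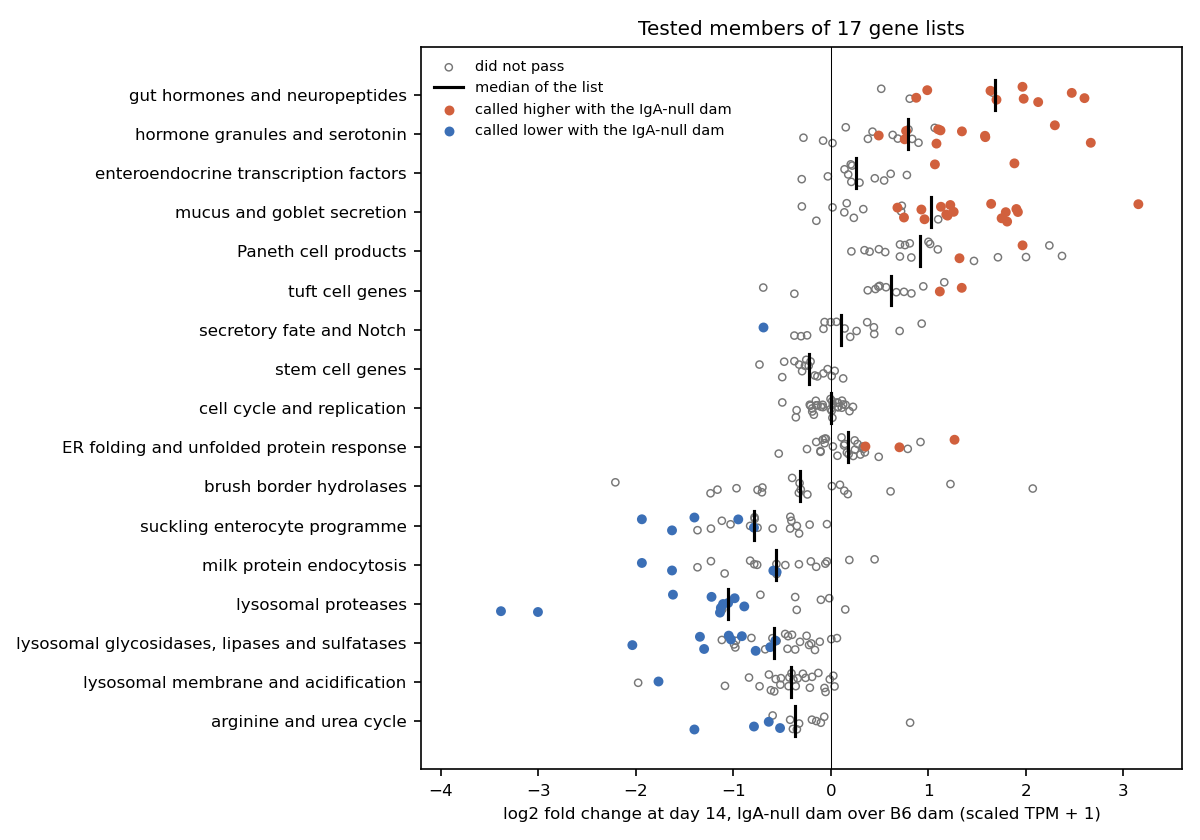
Log2 fold change at day 14 (IgA-null dam minus B6 dam) of each tested member of 17 gene lists; each point is 1 gene, filled and coloured where it was called, and the bar is the list's median. Called hormone, granule and goblet genes lie to the right of 0, called lysosomal, suckling and arginine genes to the left, and the stem cell, cell cycle and brush border lists hold no call.

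Genes of the suckling enterocyte fell in part. Of 22 suckling programme genes tested all had a log2 fold change below 0, 5 fell and the median was -0.78. Of 20 milk endocytosis genes 4 fell and none rose, with a median of -0.56. Folr1, a folate receptor (ENSMUSG00000001827.12, chr7:101858331-101870788, minus strand), stood at 52.8, 67.9 and 19.96 scaled TPM with the B6 dam and at 8.69, 9.78 and 12.3 with the IgA-null dam. It fell by 1.94 ± 0.30 (limma adjusted p = 0.0060) and passed in every fit that left out 1 library. In a fit of the 6 day 14 libraries alone Folr1 did not pass (limma adjusted p = 0.0504). Cym, the milk-clotting protease chymosin (ENSMUSG00000046213.9, chr3:107211293-107221732, minus strand), stood at 96.4, 85.7 and 79.9 and 26.03, 23.7 and 33.7 scaled TPM and fell by 1.63 ± 0.33 (limma adjusted p = 0.021). Cym was near equal in the 3 B6 libraries. Its call held without B6 replicate 3 or IgA-null replicate 3 and was lost without each of the others (adjusted p up to 0.086).

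Rab25, a small GTPase of apical recycling, stood at 12.9, 11.2 and 12.6 and 9.26, 7.25 and 7.603 scaled TPM (log2 fold change -0.56, limma adjusted p = 0.018), and Ap1m2, an epithelial clathrin adaptor subunit, at 18.01, 18.4 and 13.5 and 11.3, 9.84 and 10.8 (-0.59, limma adjusted p = 0.044). Neither passed in the TPM as deposited (adjusted p = 0.63 and 0.59). The large receptors of the suckling ileum were not among the calls. Cubn, the gene of cubilin, stood at 17.4, 22.4 and 6.73 and 10.7, 5.13 and 7.31 scaled TPM, and Dab2, its endocytic adaptor, at 13.99, 20.3 and 5.18 and 3.49, 3.52 and 6.54, both with overlap (limma adjusted p = 0.61 and 0.053). Fcgrt, the receptor that takes up milk IgG, stood at 359, 447 and 132 and 136, 72.9 and 123, where B6 replicate 3 lay inside the range of the IgA-null libraries (limma adjusted p = 0.11). Prdm1, the repressor that holds the suckling state, stood at 8.14, 9.78 and 4.57 and 3.17, 3.49 and 4.68, and Lct, the lactase gene, at 141, 148 and 60.2 and 89.3, 44.4 and 65.6, again with overlap (limma adjusted p = 0.074 and 0.74). Without B6 replicate 3, 12 suckling and 7 endocytosis genes were called. Calls of suckling genes without the other 5 libraries were 2 and 2 (B6 replicates 1 and 2) and 3, 2 and 4 (IgA-null replicates 1, 2 and 3). Those of endocytosis genes were 1 and 2, and 2, 1 and 2, in the same order.

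Sialic acid, which is abundant in milk sugars, is handled by a group in which 5 of 16 genes fell and none rose, with a median of -0.50. Npl, the lyase that breaks down free sialic acid (ENSMUSG00000042684.8, chr1:153503015-153550045, minus strand), stood at 40.8, 67.3 and 17.7 scaled TPM with the B6 dam and at 5.36, 6.64 and 8.74 with the IgA-null dam, and fell by 2.27 ± 0.47 (limma adjusted p = 0.022). Renbp, which acts on N-acyl amino sugars, stood at 38.2, 51.2 and 16.7 and 11.8, 11.9 and 17.3 (limma adjusted p = 0.041); its B6 replicate 3 was below IgA-null replicate 3. St3gal3, a sialyltransferase, and Slc35a1, the Golgi carrier of CMP-sialic acid, fell by 0.67 and 0.43 (limma adjusted p = 0.028 and 0.042), and Slc17a5, given above, was the fifth. Neu1, the lysosomal sialidase, stood at 26.1, 36.8 and 9.18 and 8.96, 8.46 and 9.83 scaled TPM and did not pass (limma adjusted p = 0.13). The calls of Npl, Renbp, St3gal3 and Slc17a5 held only without B6 replicate 3, and that of Slc35a1 in no fit that left out 1 library.

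Genes of arginine synthesis, which suckling enterocytes carry out, fell in 4 of 14 cases and rose in none. Ass1 and Asl, which make arginine from citrulline in 2 steps, stood at 25.4, 33.8 and 10.6 and 4.56, 5.74 and 3.71 scaled TPM with the B6 dam. With the IgA-null dam they stood at 7.51, 5.99 and 8.81 and 2.12, 2.27 and 2.36. Ass1 fell by 1.40 ± 0.28 and Asl by 0.79 ± 0.11 (limma adjusted p = 0.021 and 0.0041). Oat, the ornithine aminotransferase, stood at 478, 446 and 409.7 and 279, 273 and 305, with 3 close values in each dam (log2 fold change -0.64, limma adjusted p = 0.044), and Aldh18a1, which starts proline and ornithine synthesis, fell by 0.52 (limma adjusted p = 0.045). The median of the list was -0.37, and in the TPM as deposited it was 0.014 with no call. Asl passed in every fit that left out 1 library, Ass1 only without B6 replicate 3 or IgA-null replicate 3, Aldh18a1 only without B6 replicate 3, and Oat in none.

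Gpx3, a secreted glutathione peroxidase (ENSMUSG00000018339.11, chr11:54902453-54910377, plus strand), had the largest fall of the ranked genes. It stood at 335, 521 and 102 scaled TPM with the B6 dam and at 18.6, 16.96 and 27.2 with the IgA-null dam, so that the lowest B6 library was still above every IgA-null library. The fall was 3.61 ± 0.44 on the log2 scale (limma adjusted p = 0.0023), held in every fit that left out 1 library, and the B6 mean was 15.3-fold higher. Sod1, a cytosolic superoxide dismutase, stood at 161, 174 and 158 and 98.3, 79.8 and 101 (-0.82, limma adjusted p = 0.035). With Hmox1, the haem oxygenase (-0.78, limma adjusted p = 0.047), these were the 3 falls among 23 antioxidant genes, whose median was -0.20 after scaling and 0.20 as deposited.

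Of 13 iron genes tested, 3 fell and none rose, with a median of -0.51. Meltf, an iron-binding protein of the transferrin family anchored to the membrane (ENSMUSG00000022780.5, chr16:31878810-31899020, plus strand), stood at 138, 205 and 46.3 and 16.03, 20.9 and 28.7 scaled TPM, and Ftl1, the ferritin light chain, at 90.6, 127 and 55.6 and 35.8, 33.6 and 35.9. Both were apart between the dams, with the same order of B6 libraries as Lgmn. Meltf fell by 2.31 ± 0.37 and Ftl1 by 1.27 ± 0.25 (limma adjusted p = 0.0065 and 0.020), and Hmox1 was the third. Meltf passed in every fit that left out 1 library, Ftl1 and Hmox1 only without B6 replicate 3, and Sod1 in none. In a fit of the 6 day 14 libraries alone Meltf did not pass (limma adjusted p = 0.0559). Ferritin genes have near copies in the genome, so the level of Ftl1 is uncertain.

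In the opposite direction, 2 of 18 zinc genes rose, against 2.11% of all genes, with a list median of -0.18 that was 0.23 as deposited. Slc39a7, a zinc transporter of the endoplasmic reticulum and Golgi, stood at 1.67, 2.09 and 1.54 scaled TPM with the B6 dam and at 11.02, 10.4 and 11.96 with the IgA-null dam, with tight values in both (2.13 ± 0.41, limma adjusted p = 0.018). Slc39a11, another zinc transporter, rose by 0.54 (limma adjusted p = 0.022). Of 30 genes of protein folding and the unfolded protein response 3 rose, with a median of 0.17. They were Ern1 and Ern2, the stress sensors IRE1 alpha and beta, and the transcription factor Creb3l4. Ern2, the form found in mucus-making epithelium, stood at 4.43, 3.69 and 4.53 and 12.3, 12.7 and 9.78 scaled TPM (1.27, limma adjusted p = 0.0044), and Ern1 at 2.42, 2.96 and 2.95 and 4.34, 3.58 and 3.58 (0.35, limma adjusted p = 0.048). Of 32 genes of ER translocation and Golgi transport 1 rose, Sec11c, a signal peptidase subunit (0.82, limma adjusted p = 0.030), with a list median of -0.00047 (0.43 as deposited). Ern2 passed in every fit that left out 1 library, Slc39a7 only without B6 replicate 3, Slc39a11 only without B6 replicate 3 or IgA-null replicate 2, Creb3l4 only without IgA-null replicate 3, and Ern1 and Sec11c in none.

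Nutrient handling gave few calls, to be read against 1.47% of all genes called lower. Of 29 dietary fat genes 2 fell, Plin2, a lipid droplet coat protein, from 29.7, 34.1 and 17.9 to 15.6, 11.5 and 16.3 scaled TPM (limma adjusted p = 0.047), and Acsl3, an acyl-CoA synthetase of lipid droplets (-0.70, limma adjusted p = 0.022). The list median was -0.36 after scaling and 0.0033 as deposited. Of 25 nutrient transporters 1 fell, Slc16a1, a monocarboxylate carrier (-0.56, limma adjusted p = 0.031), and their median was -0.25 after scaling and 0.13 as deposited. Fgf15, the hormone that the ileum sends to the liver in answer to bile acids, was the 1 call among 7 ileal bile acid genes, with a list median of -0.55. It stood at 8.41, 7.65 and 2.91 and 1.85, 1.14 and 2.92 scaled TPM (-1.24 ± 0.29, limma adjusted p = 0.038). B6 replicate 3 and IgA-null replicate 3 were level for Fgf15. Fabp6, the ileal bile acid binding protein, stood at 5.91, 3.06 and 0.353 and 12.8, 12.3 and 7.91, an order opposite to that of Fgf15 and without overlap, and did not pass (limma adjusted p = 0.24). Plin2, Acsl3 and Slc16a1 passed only without B6 replicate 3, and Fgf15 only without B6 replicate 3 or IgA-null replicate 3.

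Of 22 interferon-stimulated genes 1 fell, Ifit2, from 7.499, 10.4 and 3.96 to 2.95, 1.19 and 3.04 scaled TPM (-1.26, limma adjusted p = 0.031, held only without B6 replicate 3), with a list median of -0.42. The list of 15 distal small intestine genes held 1 rise and 1 fall, Tff3 and Fgf15, both described above, and had a median of -0.082 (0.29 as deposited). The ranked falls not yet named were S100a1, a calcium-binding protein, at 57.4, 98.9 and 26.6 and 14.7, 8.19 and 12.6 scaled TPM (-2.12, limma adjusted p = 0.012), and Cdkn1c, a cell cycle inhibitor from an imprinted gene, at 17.5, 28.2 and 8.41 and 7.78, 3.83 and 6.16 (-1.36, limma adjusted p = 0.047). Tdrp fell by 1.38 (limma adjusted p = 0.031). S100a1 failed without B6 replicate 1 or IgA-null replicate 2, and the other 2 passed only without B6 replicate 3.

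Another 16 lists of epithelial functions held no called gene, although each was tested in the same way. None passed among the 39 nuclear respiratory chain genes (median -0.078), the 44 cytosolic ribosomal proteins (-0.14), the 24 Toll-like receptor and NF-kB genes (-0.053), the 21 cholesterol synthesis genes (-0.0012), the 20 fatty acid oxidation and ketogenesis genes (-0.29) or the 19 brush border hydrolases (-0.32). The same held for 17 tight junction genes (-0.17), 16 MHC class I genes (-0.16), 3 MHC class II genes (0.031), 7 immunoglobulin handling genes (-0.077), 16 clock genes (-0.0095), 16 immediate early genes (0.068), 11 heat shock chaperones (0.083) and 12 glucocorticoid genes (0.0086). Among 13 post-weaning enterocyte genes (-0.25) and 14 proximal small intestine genes (-0.20) none passed either. These lists hold 292 entries, with a gene counted in each list that holds it. Of the entries 42 had an unadjusted p under 0.05 in limma, against 2908 of all 14298 genes tested, and limma-voom called 2. In the TPM as deposited these medians lay higher: those of every list here that was below 0 were above 0, from 0.10 to 0.51 over the 16 lists.

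Markers of cells that the sort should remove were low with both dams. The summed scaled TPM of 18 T cell markers was 2.72 to 4.499 in the B6 libraries and 1.11 to 1.65 in the IgA-null libraries, with Cd2, Cd8b1 and Trbc1 at 0 in all 6 libraries. That of 18 macrophage and dendritic markers was 3.56 to 9.14 and 1.95 to 3.81, with C1qb, C1qc and Tyrobp at 0. Of these 2 lists 1 gene passed, Csf1r, the receptor for colony-stimulating factor 1, at 3.43, 6.28 and 1.18 and 0.271, 0.308 and 0.428 scaled TPM (-1.63, limma adjusted p = 0.013); it failed without B6 replicate 1 or IgA-null replicate 1. B6 replicate 3 was the lowest B6 library for Csf1r, as it was for 153 of all 210 lower genes. Adgre1, a defining macrophage gene, was at 0 in 5 of the 6 libraries. Which cells the Csf1r RNA came from was not tested. The 13 enteric neuron and glia markers summed to 2.84 to 5.57 and 2.15 to 2.89 scaled TPM, with Hand2 and Vip among those at 0 and 1 call, S100b (-0.63, limma adjusted p = 0.046, held only without B6 replicate 3). The sums for the 12 pancreatic acinar markers were 2.58 to 10.4 and 2.19 to 4.03, with 7 genes at 0, and those for the 13 fibroblast and muscle markers 0.854 to 1.21 and 1.96 to 2.28. The 11 B and plasma cell, 9 endothelial and 9 erythroid markers summed to at most 0.646, 0.818 and 2.74 in any of the 6 libraries. Only 4 genes of these last 5 lists were above the filter and none passed (2 at an unadjusted p under 0.05 in limma, 0 called by limma-voom).

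RNA classes tied to library make-up moved with the dam as well. The 13 mitochondrial mRNAs summed to 13511 to 21136 scaled TPM in the B6 libraries and to 5845 to 11902 in the IgA-null libraries, with a median of -0.97 and no call (8 at an unadjusted p under 0.05 in limma, 4 called by limma-voom). Of 10 non-coding RNAs tested, a list that holds the long RNA Malat1 beside small ones, 1 rose. This was Rn7sk, a polymerase III transcript that binds an elongation factor, at 6559, 6126 and 4605 and 19739, 19337 and 18309 scaled TPM (1.75 ± 0.23, limma adjusted p = 0.0025). The median of that list was 0.50. Malat1, an abundant nuclear RNA, stood at 370.5, 435 and 323 and 537, 529.6 and 543 and did not pass (limma adjusted p = 0.20). These values split the libraries by dam just as the hormone, goblet and lysosomal genes do, and their part in those results was not tested.

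The dam effect at day 14 was then set against the mean of the dam effects at days 24 and 42. The difference passed for 36 genes (0.252%), a count that was 4, 16 and 176 without B6 replicates 1, 2 and 3 of day 14, 3, 11 and 1 without IgA-null replicates 1, 2 and 3, and 1313 in the TPM as deposited. By list, 4 of the 23 granule genes, 3 of the 12 hormone genes and 3 of the 26 goblet genes differed in this way, with 2 of the 17 lysosomal proteases and 1 of the 30 glycosidases. The B6 dam group at day 24 had 2 libraries and all other groups had 3.

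Chga stood at 20.6 ± 2.66 scaled TPM (mean ± SD, n = 3) in the B6 libraries and 136 ± 6.17 in the IgA-null libraries at day 14. At day 24 its B6 libraries read 58.8 and 48.5 and the IgA-null mean was 45.5 ± 14.6 (n = 3), and at day 42 the means were 56.4 ± 24.298 and 82.1 ± 14.7 (n = 3 each). The gap between the dams at day 14 exceeded the later ones by 2.49 ± 0.36 on the log2 scale (limma adjusted p = 0.022). Pyy, Sct and Nts gave differences of 2.92, 2.61 and 3.58 (limma adjusted p = 0.022, 0.022 and 0.029). These exceed their day 14 fold changes, since at day 24 the B6 libraries were the higher ones. At that age Pyy read 10.4 and 6.84 scaled TPM with the B6 dam against a mean of 1.896 ± 1.05 (n = 3) with the IgA-null dam. Sct read 39.2 and 32.3 against 13.2 ± 0.944, Nts 22.02 and 27.8 against 6.300 ± 5.19, and Gip 373 and 307 against 111 ± 31.9 (n = 3 for each IgA-null mean). The 12 hormone genes summed to 677 and 809 scaled TPM in the B6 libraries of day 24 and to 205 to 343 in the IgA-null libraries, the opposite order to day 14 and without overlap. The dam effect at day 24 alone was not tested. The date strings differed between the dams at day 24 as they did at day 14, and were alike at day 42. The order at day 24 and the differences between ages therefore carry the same limit: date and dam cannot be told apart.

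For Reg3b, day 14 was the age of lowest expression with either dam. Against 2.36 ± 0.697 and 46.2 ± 23.8 scaled TPM at day 14, its B6 libraries at day 24 read 1828 and 4621 and the IgA-null mean was 1777 ± 225 (n = 3). The difference of the dam effect was 4.72 ± 0.69 (limma adjusted p = 0.022). In the goblet list Zg16, Tff3 and Agr2 passed this test, with differences of 3.35, 1.67 and 1.79 (limma adjusted p = 0.041, 0.035 and 0.048).

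Lgmn showed the reverse course. It stood at 112 ± 77.7 in the B6 libraries and 8.03 ± 2.39 in the IgA-null libraries at day 14, at 5.57 and 9.29 in the B6 libraries and 6.74 ± 1.78 (n = 3) with the IgA-null dam at day 24, and at 4.48 ± 0.788 and 3.91 ± 0.871 (n = 3 each) at day 42. Its IgA-null level at day 14 thus lay among the values of day 24, and its B6 level stood above both later ages. The difference of the dam effect was -3.24 ± 0.55 (limma adjusted p = 0.030), and those of Gpx3, Ctsl and Gaa were -3.38, -2.88 and -1.07 (limma adjusted p = 0.029, 0.031 and 0.038). Meltf and Folr1, expressed at day 14, were below 1 scaled TPM in both dams' means at both later ages, and their differences did not pass (limma adjusted p = 0.055 and 0.053). Not every fall lay at its later level as Lgmn did. The IgA-null means of Gpx3, Ctsl and Cym were 20.9, 4.34 and 27.8 scaled TPM at day 14. At day 24 they were 1.31, 1.21 and 1.08. For Gaa the 2 means were close, at 3.51 and 3.02.

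**Figure D5:**
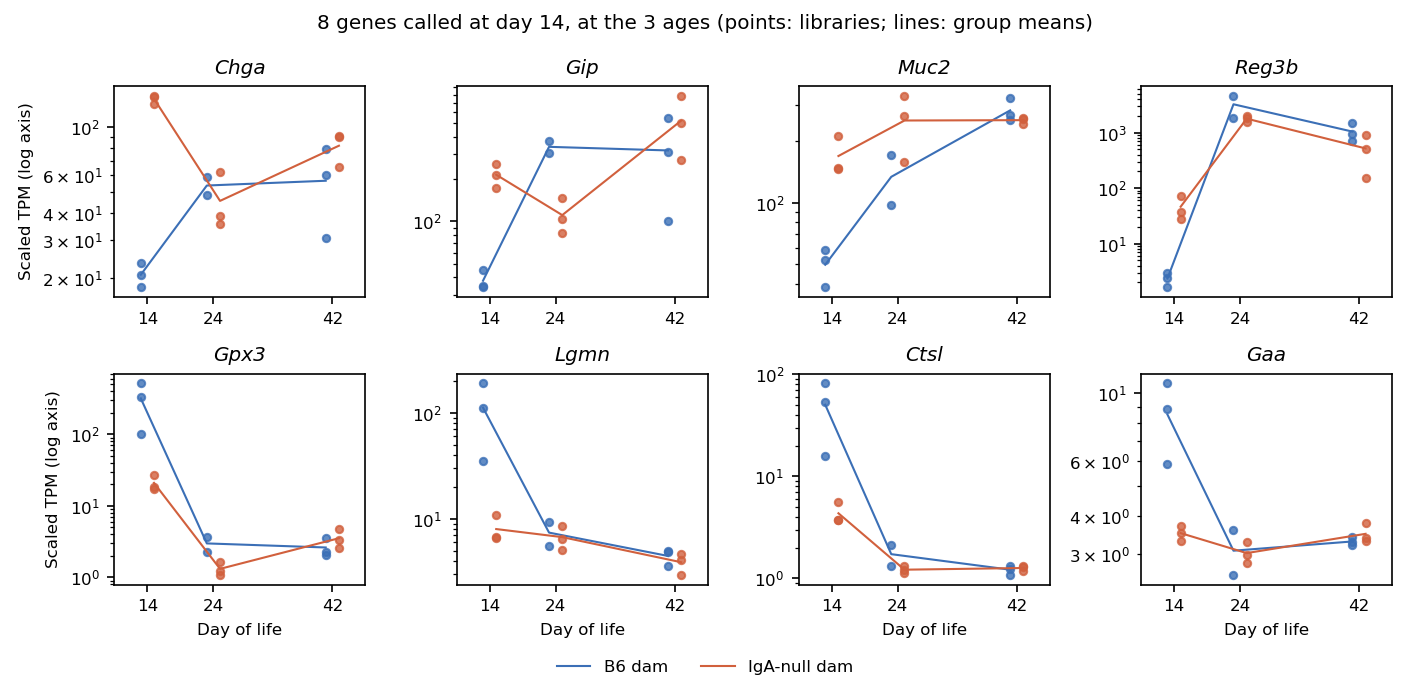
Scaled TPM (log axis) of 8 genes called at day 14, at days of life 14, 24 and 42; points are libraries, 2 for the B6 dam at day 24 and 3 for every other group, and lines join group means. Chga, Gip, Muc2 and Reg3b are higher with the IgA-null dam at day 14, and Gpx3, Lgmn, Ctsl and Gaa lower, with both dams closer at day 42.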

How the data were processed

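The authors deposited 1 table of TPM values per gene symbol, which sum to the same total in every library with no scaling between libraries. Bowtie2, Subread, DESeq2 and mm10 are named per the submitters' processing notes, without versions; roles, settings and strand of counting are not given in the sources used here. Genes that overlap an antisense partner therefore cannot be told from it. TPM was divided by median-of-ratios size factors over all 17 libraries. Genes with a deposited TPM of at least 1 in at least 2 of the 6 day 14 libraries were tested. The test was limma 3.58.1 under R 4.3.3, on log2(scaled TPM + 1) and with a mean-variance trend, in 1 fit of 6 group means over all 17 libraries, with Benjamini-Hochberg adjustment over all genes tested. The same fit gave the difference between ages. It was tested on simulated data.

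Multiplying TPM by GENCODE M21 exon lengths gave whole reads for 93.6% of values above 0 (within 0.01 reads or a relative 1e-04). These recovered reads gave the depth, and limma-voom on them called 474 of 12738 genes. Named genes were the 15 largest rises and 15 largest falls among called, non-overlapping genes with a mean of at least 10 scaled TPM in the higher group, without predicted genes, and 1 ranked fall is not reported here. Called members of 55 gene lists, up to 4 further members each, check genes and the 10 genes ranked first by p in the test between ages were added. Members and lists were chosen with earlier results of these data known. Cubn, Dab2, Fcgrt, Prdm1, Lct, Neu1, Lamp1, Tfeb and other uncalled members outside that rule were named after their values were seen. Promoter windows are from RefSeq (GRCm38.p6). Other settings tried were TPM as deposited, a pseudocount of 0.1 or 5, filtering at a TPM of 5 or not at all, quantile normalisation, the 6 libraries alone, robust moderation, library weights, a replicate block, limma-voom and leaving out each library. Protein-coding size factors were added after seeing the data. Python 3.11.15 was used with numpy 2.4.6 and pandas 2.3.3.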

Additional observations from a re-analysis of the deposited data

Results flagged for a closer look

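The genes below were set apart because their dam effect at day 14 differed, by the interaction test in limma, from the mean dam effect of days 24 and 42. They are those among the ranked genes and the 10 smallest p, and each value is the difference of log2 fold changes. Among endocrine genes it was 2.49 for Chga, 2.32 for Chgb, 1.43 for Pcsk1n, 3.58 for Nts, 2.92 for Pyy and 2.61 for Sct. For the mucus and antimicrobial genes it was 3.35 for Zg16, 1.79 for Agr2 and 4.72 for Reg3b. It was -3.38 for Gpx3, -3.24 for Lgmn and -2.88 for Ctsl. Fndc5, which encodes the precursor of irisin, stood at 4.21, 6.56 and 2.45 scaled TPM with the B6 dam and 0.433, 0.669 and 0.818 with the IgA-null dam at day 14, with a difference of -1.75. The non-coding entries were Mir301b (1.75), Mir717 (1.22), the snRNA Gm23196 (0.96) and the scaRNA Gm23119 (2.48). Mir717 and Gm23196 were listed at 0 in all 3 B6 libraries, and Mir301b was at most 0.918 deposited TPM there. These 3 genes thus passed the filter only through the IgA-null libraries. Mir717 and Gm23196 reached at most 1.89 and 1.18 scaled TPM in the IgA-null libraries, near the floor, so their differences are weak observations. Adjusted p ranged from 0.019 to 0.048 over these 17 genes. With a replicate block limma called no gene on this difference (1462 genes at an unadjusted p under 0.05), and without the block limma-voom called 33.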

How the results depend on the processing

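The count of genes called at day 14 (511) moved by over 1.5 times in the TPM as deposited (1436), under quantile normalisation (834), in a fit of the 6 day 14 libraries alone (786) and with library weights (4523). It ranged from 88 to 578 when 1 library was left out, from 113 to 143 of these for the IgA-null libraries. The count of genes whose dam effect differed from later ages (36) was 1313 as deposited, 69 with a pseudocount of 5, 57 with a TPM of at least 5 and 324 with library weights, and ranged from 1 to 176 when 1 library was left out. The other settings, apart from the replicate block, stayed within 1.5 times. With a replicate block 283 genes were called at day 14 and 0 for the difference between ages (limma, 1462 genes at an unadjusted p under 0.05). Replicate numbers do not pair these libraries: the deviations of same-numbered libraries correlated at 0.13, -0.16 and -0.067, and not every library correlated best with its own number.

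No called gene named in the text changed sign under any alternative run. Signs turned for uncalled genes: as deposited, Ddx3y 0.31, Dkc1 0.041, Lgr5 0.057, Pam 0.25 and Tfeb 0.13, and, with 1 library left out, Pam from -0.25 to 0.049 (positive without B6 replicate 2). The causes were not tested. Of named calls, 37 were lost as deposited, 38 in the 6 libraries alone and 79 without B6 replicate 1, against 16 without B6 replicate 3. With 3 libraries per dam and at most 13636442 recovered reads each, a gene that did not pass is not shown to be unchanged.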

Other observations

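Some genes of classes outside the lists also passed. The classes given here were picked after their values were seen, so their counts are descriptions, to be read against 2.11% of all genes called higher. Of 56 protein-coding genes of the replication-dependent histone clusters, 11 rose and none fell, with a median log2 fold change of 0.19. Hist1h4b stood at 21.4, 12.01 and 15.5 scaled TPM with the B6 dam and at 65.2, 55.6 and 67.4 with the IgA-null dam (limma adjusted p = 0.0059), while no gene of the cell cycle list passed. The histone genes are near copies of each other, so the share of each is uncertain. Of 516 snoRNAs, scaRNAs, snRNAs and miscellaneous small RNAs tested, 22 rose, 1 fell and the rest did not pass, with a median of 0.27. Vaultrc5, a vault RNA, stood at 129.7, 169 and 141 and 786, 699 and 296 scaled TPM (1.90, limma adjusted p = 0.0093) and failed without B6 replicate 1. Gar1, a protein of H/ACA snoRNPs, and Fbl, the methylase of C/D snoRNPs, rose by 1.40 and 1.09 (limma adjusted p = 0.0025 and 0.025, with Fbl held only without B6 replicate 3), while Dkc1 and Nop58 did not pass (limma adjusted p = 0.44 and 0.77).

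Further lysosomal genes fell: Man2b2, an alpha-mannosidase, by 1.34, Cln6 by 0.78, Plbd2 by 0.57 and Igf2r, which sorts hydrolases to lysosomes, by 0.67 on the log2 scale (limma adjusted p = 0.032, 0.046, 0.027 and 0.042). In fits that left out 1 library these calls held only without B6 replicate 3, that of Plbd2 also without IgA-null replicate 1. Sstr1, a somatostatin receptor, rose by 1.05 (limma adjusted p = 0.0025). Rbp4, the plasma retinol carrier, rose by 1.55, and Afp, the fetal serum protein, by 1.79, while Ttr, the partner of Rbp4 in plasma, fell by 1.03 (limma adjusted p = 0.014, 0.0064 and 0.043). Afp and Sstr1 passed in all 6 fits that left out 1 library, Rbp4 only without B6 replicate 3 or IgA-null replicate 2, and Ttr only without B6 replicate 3.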
